A study of Rattus norvegicus with 18 samples.

Results

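The genes described here are 179 genes whose messenger RNA was lower in the prelimbic cortex (PL) of rats 1 h after inhibitory avoidance training than in untrained rats. They were taken from 32662 gene rows, of which 11373 averaged at least 5 CPM (a gene's reads scaled by the total of all gene reads in its library) in the naive PL. Levels were set on the log2(mean CPM + 0.5) scale, and a difference of at least 0.35 downwards left 255 genes. Of these, 182 had all 3 PL pools of the 1 h group below all 3 naive PL pools, and 3 of the 182 were dropped because they were at least 0.3 higher at 1 h in the dorsal hippocampus (dHC). The selection also set aside 4 gene IDs, 0 of which met the other conditions. The members made up 1.57% of the 11373 genes. The members were thus chosen by their PL naive and PL 1 h values, and what these values show is given as a description.

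The animals were adult rats of the outbred Long-Evans strain. Naive rats stayed in the home cage, and trained rats learned inhibitory avoidance, a task in which a place is avoided after a foot shock was received there, and were killed 1 h or 6 d later. PL and dHC were punched from frozen brains and each pool joined the RNA of 5 rats, with 3 pools for each of 6 groups (naive, 1 h and 6 d in each region) and 18 libraries in all. The labels give neither sex nor the individual rats, and the libraries are numbered in blocks by group with no batch named, so that handling order and group cannot be told apart.

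The prelimbic cortex is a part of the medial prefrontal cortex that takes part in the expression of learned fear and avoidance, and the dorsal hippocampus is needed to form memories of places and episodes. Learning that engages neurons sets off a fast wave of gene transcription in which immediate early genes are induced and other transcripts decline. The level of a messenger RNA falls when less of it is made, when it decays faster, or both. In bulk tissue, fewer cells of a type and less RNA per cell cannot be told apart. The deposited tables list Ensembl gene IDs without names, and the reference table at hand matched 0 of the IDs, so the functions of the members, the markers of regions and cell types and the members' promoters and proteins were not examined. The 4 IDs printed were taken by a rule on their values.

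Total gene counts ranged from 7463875 to 9215695 per library, and a floor of 3 counts corresponded to 0.326 to 0.402 CPM. Every library was closest to another library of its own region (18 of 18). The lowest count of a member was 20 in any PL library and 2 in any dHC library. After the filter on low counts, 179 members were tested in PL and 176 in dHC.

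The fall in PL at 1 h was of moderate size in most members. It ranged from 0.35 to 0.95 on the log2 scale with a median difference of −0.45, a level 1.37-fold lower. A fall of more than 0.5 was found in 64 members and of more than 0.75 in 11. At the threshold, the 3 members just inside it had differences of −0.350328, −0.350225 and −0.35006, and the 3 genes just outside that met every other condition had −0.347031, −0.346915 and −0.346683, so that nothing sets the members apart from their neighbours there.

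The deepest fall was that of ENSRNOG00000021023. In PL it stood at 151, 168 and 86.3 CPM in the naive pools, at 78.2, 61.0 and 70.0 CPM in the 1 h pools and at 127.4, 113 and 110 CPM in the 6 d pools. The third naive pool was the lowest of its group, and above all 1 h pools as the selection requires. The 6 d pools lay between the first 2 naive pools and the 1 h pools. Its difference at 1 h was −0.95, a level 1.93-fold lower. ENSRNOG00000010263 came next, with 131, 147.2 and 73.9 CPM in the naive PL pools, 69.2, 53.1 and 62.2 CPM at 1 h and 94.6, 94.1 and 97.6 CPM at 6 d. The same naive pool was low here, the groups did not overlap at 1 h, again by selection, and the difference was −0.93. The third member in this order had a difference of −0.89 and the tenth −0.78.

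Most members were genes of low to middle abundance. Their mean level in naive PL ran from 5.11 to 1524 CPM with a median of 17.7 CPM, against a median of 36.4 CPM over the 11373 genes. Below 20 CPM lay 101 members with a median difference of −0.47 at 1 h. Between 20 and 100 CPM lay 67 members with a median of −0.41, and at 100 CPM or more 11 members with a median of −0.52. The spread among the naive PL pools was also wider in the members, with a median SD of 0.155 on the log2 scale against 0.0938 over the 11373 genes.

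Only 1 member exceeded 500 CPM in naive PL. It averaged 1524 ± 453 CPM there (SD, n = 3), with 1030 CPM in the lowest pool and 1918 CPM in the highest. At 1 h it stood at 1004, 763 and 942 CPM in PL, and at 6 d at 1327, 1331 and 1555 CPM. In dHC the same gene was higher, with 2690, 3439 and 3017 CPM in the naive pools, 2977, 2745 and 2818 CPM at 1 h and 3042, 4371 and 3362 CPM at 6 d. Its naive and 1 h pools overlapped in dHC. In PL they did not, as the selection requires of every member. The members together took 0.703% ± 0.0684 of the gene counts in naive PL (SD, n = 3), 0.483% ± 0.0193 at 1 h and 0.683% ± 0.0156 at 6 d. In dHC their share was 0.932% ± 0.0735 in naive rats, 0.847% ± 0.0265 at 1 h and 1.01% ± 0.144 at 6 d. These shares are sums of counts, in which the gene above 500 CPM weighs heavily. It averaged 3049 CPM in naive dHC and 3592 CPM in dHC at 6 d.

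In the test across all genes (edgeR, quasi-likelihood F test, adjusted p under 0.05), 59 of the 179 members were called lower in PL at 1 h, where 0.657% of the 14318 genes tested were called lower. The selection used this contrast, and the count is given for scale only.

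**Figure D1:**
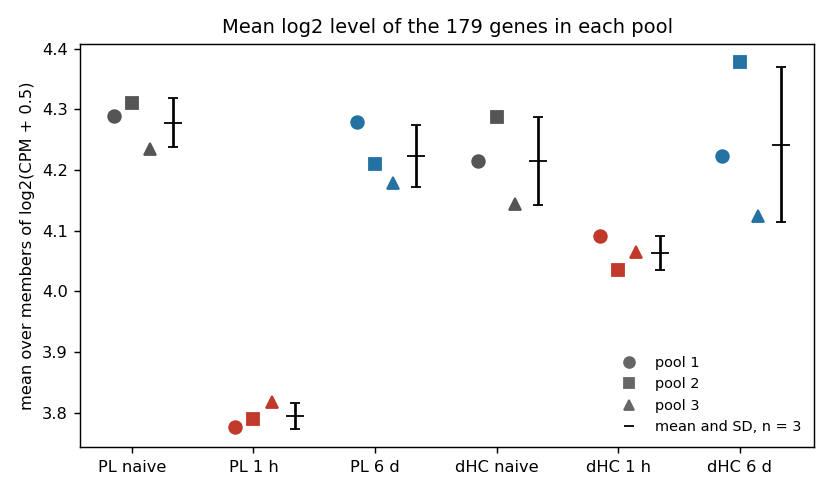
Mean of log2(CPM + 0.5) over the 179 members (y axis) in each of the 18 pools, arranged by region and group (x axis). Each point is 1 pool, shaped by pool number, and each bar the mean ± SD of its group (n = 3). The PL 1 h pools lie at 3.78 to 3.82, below the naive PL pools by selection. They also lie below the PL 6 d pools, a comparison that shares the 1 h pools with the selection. The dHC 6 d pools span the widest range, 4.12 to 4.38.

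At 6 d in PL the members were again close to their naive level. The mean of log2(CPM + 0.5) over the members was 4.29, 4.31 and 4.23 in the naive PL pools, 3.78, 3.79 and 3.82 in the 1 h pools and 4.28, 4.21 and 4.18 in the 6 d pools. The 6 d pools overlapped the naive pools and lay apart from the 1 h pools. Per gene, the median difference between 6 d and naive was −0.05, with quartiles of −0.14 and 0.04 and a range from −0.48 to 0.42. A difference below 0 was found in 122 of the 179 members (68.2%), against 44.1% of the 11373 genes, whose median was 0.01. When each of the 6 pools was left out in turn, 54 to 75 members were above 0, so that most were below it each time. The members were chosen for high values in these same naive pools, which favours differences below 0. Leaving out single pools does not remove this.

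The part of the 1 h fall that was regained by 6 d had a median of 88.2% and quartiles of 70.8% and 109%. In 57 members the 6 d mean was at or above the naive mean, and in 74.3% of the members it was at or above the lowest naive pool. In 20 members less than 50% of the fall was regained. All of these shares share the naive and 1 h pools with the selection, so that part of the return is built into the choice of genes that were low at 1 h and high in naive rats.

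No member was called at 6 d against naive in PL (0 of 179, edgeR), where 0% of the 14318 genes were called lower. At an unadjusted p under 0.05 there were 17 members, 13 lower and 4 higher, and DESeq2 called 0. The 17 were 9.50% of the members, against 3.47% of the genes tested. The 6 d and naive pools did not overlap in 13 members that were lower (background 2.87%) and 6 that were higher (background 4.88%). Against the 1 h pools, 54 of 179 members were called higher at 6 d (background 1.16%), and in 71.5% of the members all 6 d pools lay above all 1 h pools (background 11.7%). The counts against 1 h rest on the 1 h pools that chose the members. Those against naive rest on the naive PL pools that chose them, which favours lower values at 6 d.

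ENSRNOG00000016117 had the largest positive difference of any member between 6 d and naive in PL. It stood at 14.9, 15.0 and 17.3 CPM in the naive PL pools, 13.6, 10.8 and 11.1 CPM at 1 h and 21.8, 24.5 and 17.4 CPM at 6 d. Its 6 d pools all exceeded its naive pools, the lowest by a narrow margin. The log2 fold change at 6 d was 0.41 ± 0.13 (SE) against naive, with an adjusted p of 0.999 by edgeR and 0.324 to 1.000 over the alternatives, and it did not pass the test. Against 1 h it was 0.83 ± 0.14 (edgeR adjusted p = 0.00112, 8.99e-08 to 0.0148 over 15 alternatives).

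ENSRNOG00000021023 was higher at 6 d than at 1 h in PL by a log2 fold change of 0.74 ± 0.16 (SE), with an edgeR adjusted p of 0.0119. The call was lost with DESeq2 (0.138) and without the PL 1 h pool 2 (0.0963) or pool 3 (0.0559), within a range of 4.07e-19 to 0.138. For ENSRNOG00000010263 the change was 0.62 ± 0.16 and the edgeR adjusted p 0.0379. This call was lost with DESeq2 (0.256), without the PL 1 h pool 1 (0.0742), 2 (0.193) or 3 (0.117) and without the 6 d pool 2 (0.0641) or 3 (0.0780), within a range of 1.60e-12 to 0.256.

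In dHC most members were also lower at 1 h than in naive rats, by less than in PL. The mean of log2(CPM + 0.5) over the members was 4.21, 4.29 and 4.14 in the naive dHC pools and 4.09, 4.04 and 4.06 in the 1 h pools, so that the lowest naive pool was above the highest 1 h pool. Per gene, the median difference was −0.15 with quartiles of −0.25 and −0.03. It was below 0 in 151 of the 179 members (84.4%), against 52.9% of the 11373 genes with their median of −0.01. Leaving out each pool in turn kept 132 to 149 members below 0, the fewest without the dHC naive pool 2. The upper bound of 0.3 in the selection cut the list on this side, but only slightly: over the 182 genes before that bound the median was −0.14 and 151 were below 0.

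A level lower by more than 0.3 in dHC at 1 h was found in 35 members (19.6%) and in 285 of the 11373 genes (2.51%), and 8 members were lower by more than 0.5. In 170 of the 179 members the difference was smaller in dHC than in PL, where a fall of at least 0.35 was required. All dHC 1 h pools lay below all naive pools in 37 members (background 9.03%) and above them in 3 (background 9.60%). In the test across all genes (edgeR), 0 of 176 members were called in dHC at 1 h, where 0.00699% of the 14305 genes were called lower, a single gene. At an unadjusted p under 0.05, 31 members were lower and 1 higher, together 18.2% of the members against 10.4% of the genes. The smallest adjusted p of a member was 0.0581, and DESeq2 called 2. With the replicate number as a block, 9 members were called lower, among 150 genes called in either direction, against 32 genes without it.

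Both leaders of the PL fall differed less between the dHC groups, which their choice by the largest PL falls favours. ENSRNOG00000021023 stood at 227, 259 and 253 CPM in the naive dHC pools and at 219, 180 and 214 CPM at 1 h, a difference of −0.27 with no overlap of the pools. ENSRNOG00000010263 stood at 182, 211 and 185 CPM in naive dHC and at 196, 167 and 178 CPM at 1 h, a difference of −0.10 with overlapping pools. Both were more abundant in naive dHC than in naive PL.

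**Figure D2:**
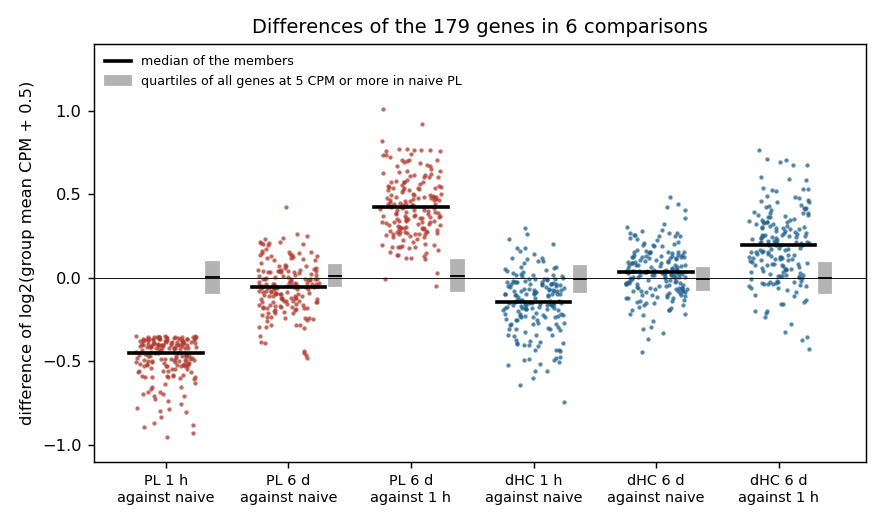
Differences of the 179 members in log2(mean CPM + 0.5), by comparison. Each point is 1 member, black lines mark the medians of the members and grey boxes the quartiles of the 11373 genes. The medians are −0.15 for dHC at 1 h against naive, 0.04 for dHC at 6 d against naive and −0.05 for PL at 6 d against naive.

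At 6 d in dHC the members spread around their naive level. The mean of log2(CPM + 0.5) over the members was 4.22, 4.38 and 4.12 in the 6 d pools against 4.21, 4.29 and 4.14 in the naive pools. The second 6 d pool lay above every naive pool and the third below every naive pool. Per gene, the median difference was 0.04 (quartiles −0.06 and 0.12, range −0.44 to 0.48), with 111 members above 0 and 68 below. Over the 11373 genes the median was −0.01 and 53.1% were below 0. The direction rests on single pools: without the dHC 6 d pool 2 the median was −0.05 with 116 members below 0, and without the dHC naive pool 3 it was −0.00 with 90 below 0.

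No member was called at 6 d against naive in dHC (0 of 176, edgeR), where 0% of the genes were called higher. At an unadjusted p under 0.05, 2 were lower and 7 higher (5.11% of the members against 5.62% of the genes), and DESeq2 called 0. The smallest adjusted p of a member was 0.831. The pools did not overlap in 4 members that were lower (background 5.28%) and 4 that were higher (background 4.37%), both shares below the background.

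ENSRNOG00000015615 had the largest positive difference of any member between 6 d and naive in dHC, 0.48. It stood at 7.66, 9.89 and 9.06 CPM in the naive dHC pools, 11.4, 9.28 and 10.8 CPM at 1 h and 13.3, 13.2 and 11.3 CPM at 6 d. All 6 d pools lay above all naive pools, and the 1 h pools overlapped both. The log2 fold change was 0.52 ± 0.14 (SE), with an edgeR adjusted p of 0.831 and a range of 0.215 to 0.999 over the alternatives. In PL it stood at 7.49, 6.71 and 7.24 CPM in naive rats, 3.71, 6.23 and 5.72 CPM at 1 h and 4.84, 5.76 and 8.71 CPM at 6 d, and the 6 d pools overlapped both other groups.

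The 2 leaders of the PL fall shared a high second pool in dHC at 6 d. ENSRNOG00000021023 had 224, 314 and 241 CPM there and ENSRNOG00000010263 had 198, 302 and 197 CPM. In both, the second pool was above the other two and above every naive dHC pool. Against naive, the edgeR log2 fold changes were 0.09 ± 0.10 (SE, adjusted p = 0.946) and 0.28 ± 0.12 (adjusted p = 0.854). The first became −0.08 without the dHC 6 d pool 2, and the second passed the test with no filter on low counts (0.00937), with adjusted p up to 0.999 elsewhere.

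Most members were higher in dHC at 6 d than at 1 h. The median difference was 0.20, with 34 of the 179 members below 0 (19.0%), against a median of −0.00 and 50.2% below 0 over the 11373 genes. Leaving out each pool in turn gave 30 to 42 members below 0, and the median was 0.12 without the dHC 6 d pool 2. All 6 d pools lay above all 1 h pools in 35 members (background 9.10%). The test across all genes (edgeR) called 3 of 176 members higher and 0 lower (1.70%, background 0.405%). At an unadjusted p under 0.05, 58 were higher and 3 lower, together 34.7% of the members against 14.3% of the genes. With the replicate number as a block, 24 members were called, 23 higher and 1 lower, among 549 genes called, against 158 genes without it. This comparison shares the dHC 1 h pools with the one between 1 h and naive rats.

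The 3 called members had different courses. The first stood at 13.0, 14.7 and 14.0 CPM in naive dHC, 9.31, 9.17 and 7.77 CPM at 1 h and 14.3, 16.2 and 12.3 CPM at 6 d. Its 1 h pools were all below the others, with a log2 fold change of 0.71 ± 0.14 between 1 h and 6 d (SE, edgeR adjusted p = 0.0160, 0.000189 to 0.129 over 15 alternatives). This call was lost without the dHC 1 h pool 1 (0.0638), the 1 h pool 3 (0.129) or the 6 d pool 2 (0.0872).

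The second stood at 49.4, 53.1 and 45.7 CPM in naive dHC, 42.4, 47.4 and 42.7 CPM at 1 h and 54.9, 56.5 and 62.3 CPM at 6 d. Its 6 d pools were above all others and its naive and 1 h pools overlapped. The log2 fold change was 0.39 ± 0.08 (SE, edgeR adjusted p = 0.0213, 0.000474 to 0.148 over the alternatives), and the call was lost without the dHC 1 h pool 1 (0.129), the 1 h pool 3 (0.148) or the 6 d pool 2 (0.0581). The third stood at 72.8, 94.6 and 56.5 CPM in naive dHC, 49.4, 55.0 and 47.1 CPM at 1 h and 76.0, 109.8 and 62.1 CPM at 6 d. In each dHC group its pool 2 was highest and its pool 3 lowest. The log2 fold change was 0.72 ± 0.17 (SE, edgeR adjusted p = 0.0424, 3.88e-16 to 0.239 over the alternatives). This call was lost with DESeq2 (0.167) and without the dHC naive pool 1 (0.0618), the 1 h pool 1 (0.179), 2 (0.0572) or 3 (0.239) or the 6 d pool 2 (0.225).

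The 2 leaders of the PL fall were not called between 1 h and 6 d in dHC. For ENSRNOG00000021023 the log2 fold change was 0.35 ± 0.10 (SE, edgeR adjusted p = 0.106, 3.74e-06 to 0.424 over the alternatives), and for ENSRNOG00000010263 it was 0.37 ± 0.12 (adjusted p = 0.143, 1.52e-06 to 0.599). Both passed with no filter and with the replicate number as a block (0.0354 and 0.0458), with the no-feature share as a covariate (0.0483 and 0.0466), and each without a single dHC 6 d pool (0.0270 without pool 1 and 0.0406 without pool 3).

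**Figure D3:**
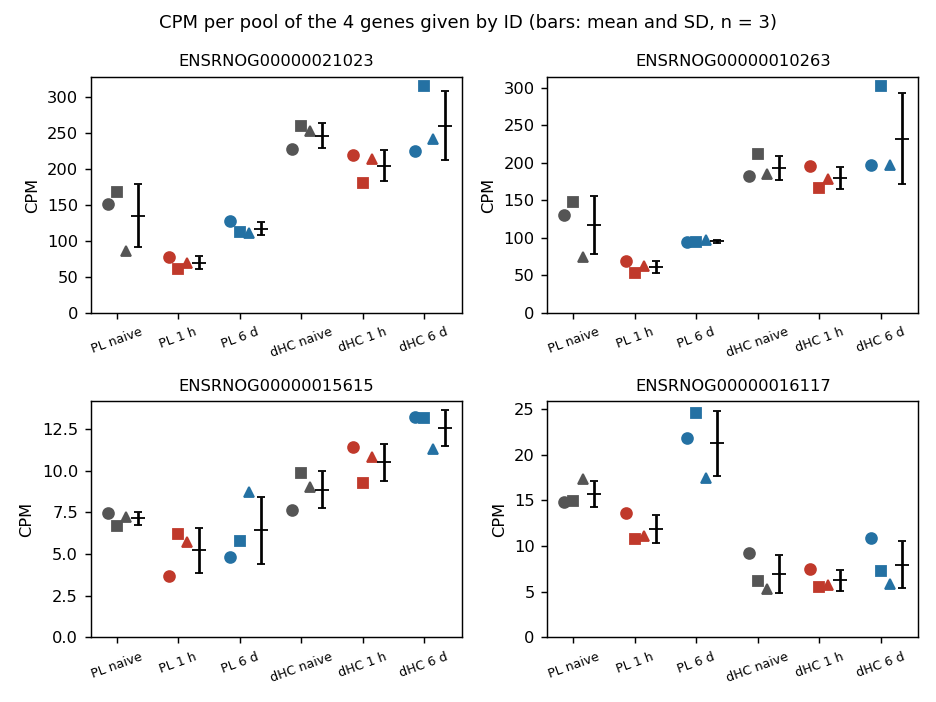
CPM (y axis) of the 4 named genes in each pool, by region and group (x axis). Each point is 1 pool, shaped by pool number, and each bar the mean ± SD of its group (n = 3). The dHC 6 d pool 2 stands highest for ENSRNOG00000021023 and ENSRNOG00000010263, at 314 and 302 CPM.

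Among the dHC pools of a group, many members were high or low together. To follow this, the mean of its group was taken from each gene's log2(CPM + 0.5) in the 9 dHC pools. The correlation of a member's deviations with the mean deviation of the other members had a median of 0.51 and ranged from −0.82 to 0.98. It was 0.5 or more in 90 members (50.3%), between 0 and 0.5 in 48 and below 0 in 41, of which 7 (3.91%) were at −0.5 or less. Of the 11194 other genes at 5 CPM or more in naive PL, 2018 (18.0%) were at 0.5 or more with the members' mean and 2122 (19.0%) at −0.5 or less. Over pairs of genes the median correlation was 0.172 among members and 0.00817 among the 11373 genes. The first axis of variation held 42.7% of the members' variance and 27.0% of that of the 11373 genes. These correlations are over 9 pools of 3 groups, which share a library and its composition across all genes, and they are given as a description.

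The pools that carried this pattern were few. In the 90 members with a correlation of 0.5 or more, the mean deviation was −0.00, 0.14 and −0.14 in the naive dHC pools 1, 2 and 3, 0.04, −0.03 and −0.02 at 1 h and −0.00, 0.25 and −0.25 at 6 d. The second pool was thus high and the third low in both the naive and the 6 d group, and the 1 h pools were close together. The dHC 6 d pool 2 was the highest of its group for 106 of the 179 members (59.2%, against 30.1% of the 11373 genes) and pool 3 the lowest for 97 (54.2% against 35.6%). In the naive dHC group, pool 2 was the highest for 101 members (56.4% against 33.1%) and pool 3 the lowest for 83 (46.4% against 35.3%). The labels do not say that a number marks a shared batch or set of rats. The median correlation was 0.29 without the dHC 6 d pool 2, and 0.40 without all 6 d pools, a setting added after the data were seen.

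**Figure D4:**
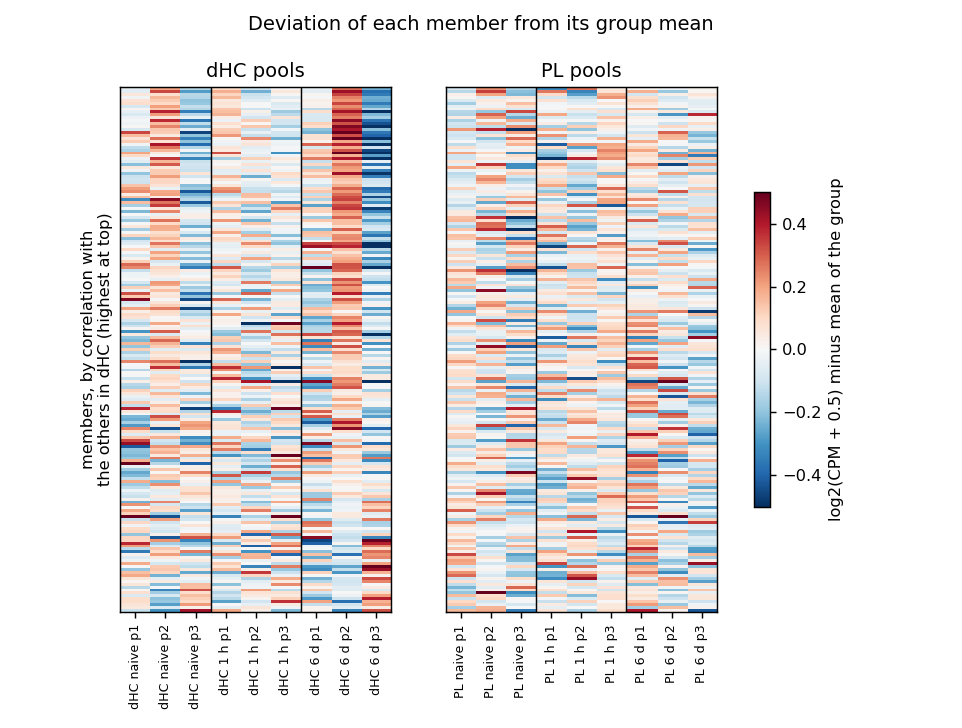
Deviation of each of the 179 members (rows) from the mean of its group in log2(CPM + 0.5), in the 9 dHC pools and the 9 PL pools (columns), with members ordered by their correlation with the others in dHC. The upper rows are high in the dHC 6 d pool 2 and low in pool 3, with mean deviations of 0.25 and −0.25 for the 90 members at a correlation of 0.5 or more, and the same order gives no such blocks in PL.

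The range of the members' mean over the pools of a group was 0.145 in naive dHC, 0.0564 at 1 h and 0.253 at 6 d. Over the 11373 genes it was 0.0130, 0.0127 and 0.0427. In PL the ranges of the members were smaller, 0.0771 in naive rats, 0.0409 at 1 h and 0.1002 at 6 d. The selection used the naive and 1 h PL pools. In dHC, the median member difference between 1 h and naive was −0.15, and the members' mean had an SD of 0.0724 between naive pools. The 0.253 between the dHC 6 d pools was wider than this difference, but that group is not part of the comparison.

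The share of reads that aligned but hit no gene model, called the no-feature share, moved with the members' mean among the dHC pools. It was taken over all reads, unaligned ones included. Unaligned reads were 46.1%, 44.3% and 51.8% in the naive pools and 50.1%, 49.0% and 46.8% at 1 h. At 6 d they were 49.9%, 48.5% and 49.0%. The no-feature share was 11.6%, 12.4% and 10.1% in the naive pools, 10.9%, 11.6% and 11.6% at 1 h and 11.3%, 11.8% and 10.1% at 6 d. Over the 9 pools, with the mean of each group removed, its Pearson correlation with the members' mean was 0.78 and Spearman's rho was 0.78. Distance was taken from the median of the share over the 9 pools, with the mean of each group removed. Without the pools farthest from it, the third naive and the third 6 d pool, both at the low end, Pearson's correlation over the other 7 pools was 0.52. In the 1 h group alone, the pool with the lowest no-feature share had the highest mean of the members. The correlation with total gene counts was 0.06, with the share of unaligned reads −0.46, with reads aligned to several places 0.45, with ambiguous reads −0.19 and with the mean over the 11373 genes 0.14. Per gene, the median correlation with the no-feature share was 0.32 in the members and 0.01 over the 11373 genes. With the no-feature share regressed out of the deviations, a setting added after the data were seen, the median correlation of a member with the others was 0.39 and 77 members remained at 0.5 or more. The group means of the no-feature share in dHC were 11.4% in naive rats, 11.4% at 1 h and 11.1% at 6 d, and in PL 12.0%, 11.6% and 12.8%. Its part in the members' variation was not tested beyond these values.

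**Figure D5:**
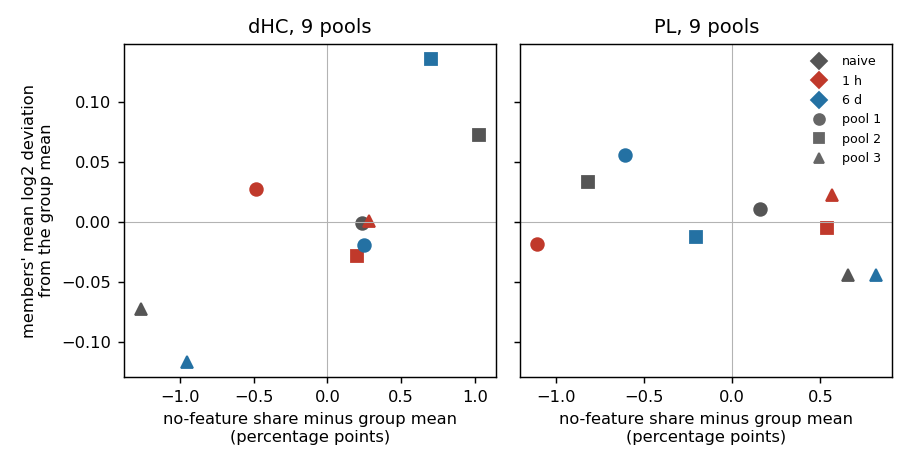
Mean deviation of the members in log2(CPM + 0.5) (y axis) against the deviation of the no-feature share from its group mean in percentage points (x axis), for the 9 dHC and the 9 PL pools. Each point is 1 pool, coloured by group and shaped by pool number. In dHC the correlation is 0.78, with the naive and 6 d pools 2 and 3 at the ends, and in PL it is −0.47.

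The members that varied together in dHC were those with the larger falls there. In the 90 members at a correlation of 0.5 or more, the median dHC difference at 1 h was −0.19 and 81 were below 0. It was −0.10 with 43 of 48 below 0 in the members at 0 to 0.5, and −0.07 with 27 of 41 below 0 in the members under 0. Between 1 h and 6 d in dHC the medians were 0.25, 0.14 and 0.08 in the same order. The fall in PL differed less, with medians of −0.48, −0.41 and −0.40. Abundance and regional balance went the same way. The median level in naive dHC was 28.4, 13.0 and 10.6 CPM, and the median difference between naive dHC and naive PL was 0.31, −0.02 and −0.31. Low counts weaken a correlation by counting error, and the part of depth in this order was not tested.

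Of the named genes, ENSRNOG00000010263 had a correlation of 0.89 with the other members in dHC, ENSRNOG00000021023 of 0.68, ENSRNOG00000015615 of 0.52 and ENSRNOG00000016117 of 0.25. The last stood at 9.24, 6.11 and 5.32 CPM in the naive dHC pools, 7.52, 5.48 and 5.69 CPM at 1 h and 10.9, 7.27 and 5.79 CPM at 6 d, with its first pool highest in every group. Of the 3 members called between 1 h and 6 d in dHC, the third had a correlation of 0.91 and the second of −0.10.

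In PL the members varied together less. The naive and 1 h PL pools used here also chose the members, so these values are a description. The median correlation of a member with the others was 0.27, and 47 members (26.3%) were at 0.5 or more, against 13.6% of the other genes, while 63 were below 0. Over pairs the median was 0.0504 among members and 0.0162 among the 11373 genes, and the first axis held 36.2% and 31.0% of the variance. The PL 6 d pool 1 was the highest of its group for 89 members (49.7% against 30.8%) and pool 3 the lowest for 74 (41.3% against 25.5%). The members' mean had a correlation of −0.47 with the no-feature share (−0.71 over 7 pools, without PL naive pool 2 and PL 1 h pool 1, whose shares with the group mean removed are farthest from the median), 0.54 with total gene counts and −0.71 with the mean over the 11373 genes.

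Few members varied together with the others in both regions. A correlation of 0.5 or more in both was found in 15 members. Of the 90 in dHC, 16.7% also reached 0.5 in PL, against 26.3% of all 179 members. Of the 47 in PL, 31.9% also reached 0.5 in dHC, against 50.3% of all members. Across the 179 members, the correlations with the others in dHC and in PL were themselves correlated at −0.10. Genes are not independent replicates, and this value is a description. The deviations of the members' mean in same-numbered dHC and PL pools were correlated at 0.37 over 9 pairs.

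In untrained rats the members differed strongly between the regions in both directions. The test across all genes (edgeR, all 18 libraries) called 131 of 179 members, 72 higher in dHC (background 22.9%) and 59 lower (background 23.4%). The median difference between dHC and PL was 0.04, with a range from −3.58 to 3.34. More than a 2-fold difference was found in 47 members, 15 of them toward dHC and 32 toward PL. The selection used the level in naive PL, so this is a description. The median difference in dHC at 1 h hardly varied with it, at −0.15 in the 72 members higher in dHC, −0.14 in the 59 lower and −0.13 in the 48 not called. The share below 0 varied more, at 66 of 72, 44 of 59 and 41 of 48. The median correlation with the other members among dHC pools was 0.66, 0.38 and 0.45.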

How the data were processed

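Stranded messenger RNA libraries (200 ng of RNA as input, PCR of 12 cycles) were sequenced as paired reads of 150 nt, per the labels' protocols. The authors deposited raw read counts, a whole number for each Ensembl gene. DESeq2, bedtools 2.17.0, Picard 1.126 and the build Rnor_6.0 appear without roles, per the submitters' processing notes. How reads were aligned and counted, and on which strand, is not given in the sources used here, so overlapping, antisense and near-identical genes are uncertain.

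The 5 rows that name no gene entered neither totals nor tests, the no-feature row being 10.1% to 13.6% of a library's reads. Members and lists were chosen with earlier results of these data known. The 18 replicate pairs differed by more than sampling noise (chi-square per degree of freedom 1.67 to 4.98). The labels call the pools independent. P-values weigh a difference between groups against the spread between pools, not between individual rats. Floors cover counting error only.

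CPM and correlations were computed with Python 3.11.15 (numpy 2.4.6, pandas 2.3.3). Genes were tested in R 4.3.3 with edgeR 4.0.16 (glmQLFTest, TMM, filterByExpr, two-sided, Benjamini-Hochberg adjustment over all genes tested), over the 9 libraries of a region or all 18 for the naive regions. DESeq2 1.42.0, other scalings, filters and covariates and leaving out pools were alternatives. Same-numbered pools deviated together (all 3 correlations over 0.1) between dHC naive and dHC 6 d, at 0.110, 0.304 and 0.252, and in no other pair of groups of a region. The labels name no source of a pairing. The tests were tried on simulated data. The 4 IDs printed are the members with the 2 largest falls in PL and those with the largest positive 6 d difference in each region. The gene lists and markers drawn up by symbol could not be matched.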

Additional observations from a re-analysis of the deposited data

Results flagged for a closer look

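For 2 of the named genes, every pool of a trained group lay on opposite sides of the naive mean in the 2 regions. For ENSRNOG00000015615 at 1 h, the 3 PL pools lay below the naive mean, as the selection requires, and the 3 dHC pools above it. The change in log2(mean CPM + 0.5) was higher by 0.653 in dHC than in PL. Both sides of this value carry a selection: the PL change chose the members, and the gene was named for its large difference between 6 d and the same naive dHC pools, which favours low naive dHC values. In dHC the 1 h and naive pools overlapped. For ENSRNOG00000010263 at 6 d, the 3 PL pools lay below the naive PL mean and the 3 dHC pools above the naive dHC mean, and the changes differed by 0.565. The pools of the 6 d and naive groups overlapped in both regions: all PL 6 d pools were above the lowest naive PL pool (73.9 CPM), and 2 of the dHC 6 d pools were below the highest naive dHC pool (211 CPM). In dHC its value rests largely on the second 6 d pool, at 302 CPM against 198 and 197 CPM in the other two. The naive PL pools also took part in choosing ENSRNOG00000010263, which favours PL values at 6 d below their mean. The difference between the regions was not tested in either gene.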

How the results depend on the processing

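Counts of called members moved with the filter on low counts, the libraries and terms in the fit, and single pools. With no filter, the calls went from 59 to 110 for PL at 1 h, from 54 to 85 for PL at 6 d against 1 h, from 0 to 1 for PL at 6 d against naive, from 0 to 15 for dHC at 1 h, from 0 to 2 for dHC at 6 d against naive and from 3 to 32 for dHC at 6 d against 1 h. Calls over all genes went up with them, in the same order from 206 to 564, 317 to 675, 0 to 8, 32 to 275, 0 to 31 and 158 to 623. With only the groups compared in the fit, PL at 1 h gave 103 and dHC at 1 h 9. DESeq2 gave 2 for dHC at 1 h. With the no-feature share as a covariate, added after the data were seen, dHC gave 5 at 1 h and 20 at 6 d against 1 h. Leaving out single pools gave 23 to 107 for PL at 1 h, 25 to 62 for PL at 6 d against 1 h, 0 to 1 for PL at 6 d against naive (1 without the PL naive pool 3), 0 to 3 for dHC at 1 h, 0 to 0 for dHC at 6 d against naive and 0 to 21 for dHC at 6 d against 1 h. Calls over all genes were 89 at the lowest and 574 at the highest of these counts for PL at 1 h. For PL at 6 d against 1 h they were 149 and 358. At the highest counts in dHC they were 66 at 1 h and 343 at 6 d against 1 h. The calls between the naive regions stayed within 1.5 times the main count in every setting.

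Deviations of same-numbered pools had correlations of −0.108 to 0.332, with 6 of 18 over 0.1. All 3 were over 0.1 between dHC naive and dHC 6 d, and in no other pair of groups. With the replicate block, dHC gave 9 at 1 h and 24 at 6 d against 1 h (150 and 549 over all genes). PL gave 78 at 1 h and 63 at 6 d against 1 h (312 and 423 over all genes). The comparison of 6 d against naive gave 0 in both regions, and the naive regions gave 132 (6887 over all genes).

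The list itself held 327 genes with a minimum of 1 CPM. TMM scaling gave 189 genes, 171 of them among the 179, and a pseudocount of 1 gave 160, 159 of them shared. Leaving out single pools gave 176 to 294, of which 229 to 294 without a PL pool, where fewer pools have to be apart. Median differences ranged from −0.167 to −0.104 for dHC at 1 h, from −0.0483 to 0.101 for dHC at 6 d against naive and from −0.0947 to −0.0351 for PL at 6 d against naive. The joint variation in dHC, 0.51, was 0.39 with the no-feature share regressed out, 0.40 without the 6 d pools and 0.29 to 0.57 without single pools. The change of ENSRNOG00000021023 in dHC at 6 d against naive was −0.0785 without the dHC 6 d pool 2 and up to 0.189 (without the 6 d pool 1) when other single pools were left out. The cause of these shifts was not tested.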
